A study of Mus musculus with 18 samples.

Results

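The genes described here are 8 genes of the Nodal and Lefty pathway, Nodal, Tdgf1, Acvr2b, Foxh1, Lefty1, Lefty2, Smad7 and Skil, among 16022 genes tested in mouse embryonic stem cells. They were chosen by name, with earlier results of these data known. Every probe whose RefSeq transcript maps to one of the 8 symbols was taken, which gave 16 of the 56605 probes of the array. All 16 probes passed the filter on dim signal, so no member was lost. Expression was measured on 18 Agilent arrays, 1 array per sample, from cells of strain 129SV that by their labels lack endogenous Esrrb, an orphan nuclear receptor that helps keep stem cells pluripotent, and that carry Raf-ErT2, a Raf kinase switched on by 4-hydroxytamoxifen (4OHT). By the labels, 9 arrays came from such cells with an empty vector (KO) and 9 from such cells with an Esrrb transgene (Rescue), and neither the promoter of the transgene nor whether a line is 1 clone is given in the sources used here.

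All cells were grown in serum and LIF with 2 uM Chir99021, a GSK3 inhibitor, and then kept for 24 h in serum plus LIF to which 250 nM of the FGF receptor inhibitor PD173074 was added. Arrays titled 0h were taken before 4OHT, those titled 8h after 8 h in 250 nM 4OHT, and those titled 8h2h after 8 h in 4OHT and 2 h with a Mek inhibitor. Each of the 6 groups has 3 arrays. There is no group kept for 8 h without 4OHT, so Raf activation, 4OHT itself and 8 more hours cannot be told apart. There is also no group with the later harvest and no inhibitor, so 2 more hours and the inhibitor cannot be told apart.

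Nodal is a secreted ligand of the TGF-beta superfamily. It binds type I and type II activin receptors together with an EGF-CFC co-receptor, and the receptors phosphorylate Smad2 and Smad3, which enter the nucleus with Smad4 and act at target genes with partners such as Foxh1. Nodal, Lefty1, Lefty2 and Smad7 are themselves targets of this pathway. The Lefty proteins are secreted antagonists that limit Nodal signalling, while Smad7 and the SnoN protein encoded by Skil restrain it inside the cell. In mouse embryonic stem cells the pathway is active without added ligand, and in the embryo it patterns the epiblast and induces mesendoderm.

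Promoter sequences are shown for 3 of the 8 genes, the ligand, the co-receptor and the type II receptor, through which a cell sends and receives the signal. Each runs from 250 bases before to 50 bases after the start in RefSeq (build GRCm38.p6), 5′ to 3′ on the strand of the gene: Nodal at chr10:61417722-61418021 (plus strand), Tdgf1 at chr9:110946109-110946408 (minus strand) and Acvr2b at chr9:119401928-119402227 (plus strand). The start used for Acvr2b lies inside the RefSeq span of the gene, so its window is not the one at the outer end of the gene. Capitals mark matches to the motifs searched.
Nodal: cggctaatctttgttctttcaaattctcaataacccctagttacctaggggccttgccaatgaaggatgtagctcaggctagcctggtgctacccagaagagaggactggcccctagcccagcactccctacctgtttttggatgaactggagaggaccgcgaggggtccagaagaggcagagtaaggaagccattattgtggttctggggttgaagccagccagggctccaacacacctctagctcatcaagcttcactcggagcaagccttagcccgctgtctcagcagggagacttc
Tdgf1: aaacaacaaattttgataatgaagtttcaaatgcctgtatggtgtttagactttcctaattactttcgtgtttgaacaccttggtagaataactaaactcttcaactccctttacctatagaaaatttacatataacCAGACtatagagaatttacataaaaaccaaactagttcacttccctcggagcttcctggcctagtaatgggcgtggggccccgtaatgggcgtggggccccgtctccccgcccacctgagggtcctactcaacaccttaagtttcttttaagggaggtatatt
Acvr2b: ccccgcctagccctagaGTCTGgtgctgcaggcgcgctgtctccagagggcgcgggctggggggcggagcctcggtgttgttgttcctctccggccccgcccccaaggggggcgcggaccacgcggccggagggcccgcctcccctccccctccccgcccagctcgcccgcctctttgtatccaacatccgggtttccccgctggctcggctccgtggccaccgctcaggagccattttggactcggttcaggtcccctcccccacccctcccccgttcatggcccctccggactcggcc
Lefty1, Lefty2, Foxh1, Smad7 and Skil are named only.

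The motifs were searched on both strands: the SMAD box CAGAC, the FoxH1 motif AATCCACA, the Esrrb motif TCAAGGTCA, the AP-1 motif TGANTCA and the ETS motif CCGGAAGT. Tdgf1 and Acvr2b each hold 1 match, to the SMAD box, in Acvr2b on the opposite strand, and no other motif overlaps either match. The Nodal window holds 0 matches. Among 27025 promoter windows of the same length, 49.7% hold the SMAD box, 0.873% the FoxH1 motif, 0.407% the Esrrb motif, 7.93% the AP-1 motif and 4% the ETS motif. GC content is 54% in the Nodal window, 41.7% in that of Tdgf1 and 73.3% in that of Acvr2b. A match describes letters only, and binding was not measured.

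Values are log2 processed signal minus the log2 75th percentile of the array, so 0 means a spot as bright as that percentile. This log2 scaled signal is used for every level below, and a change is a difference of group means on it, with its SE. A gene was called at an adjusted p below 0.05 (Benjamini-Hochberg over all 16022 genes) in limma's moderated two-sided test with all 18 arrays in 1 model. In RNA from a whole culture, fewer cells expressing a gene and less RNA per cell cannot be told apart.

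The titles and the source names of 12 arrays disagree: the Mek inhibitor stands in the source name of the 8h titles and is missing from that of the 8h2h titles. The titles name the groups here, and no treatment was inferred from signal. On each slide and in each line, 5 genes induced by ERK (Dusp6, Spry2, Spry4, Egr1 and Etv4) were lower at 8h2h than at 8h by title, in 30 of 30 pairs. Dusp6, Spry2, Spry4 and Egr1 were called lower in both lines. Etv4 hardly moved, at -0.33 in KO (limma adjusted p = 0.547) and -0.12 in Rescue, not called in either line, and its groups overlapped. Esrrb gave signal in every group, above background on all arrays. It averaged 5.03 ± 0.27, 3.75 ± 0.31 and 3.85 ± 0.54 on KO arrays titled 0h, 8h and 8h2h and 4.40 ± 0.41, 1.91 ± 0.21 and 1.62 ± 0.13 on Rescue arrays (log2 scaled signal, SD, n = 3). It was thus higher on arrays labelled KO, by 0.63 at 0h (adjusted p = 0.118), 1.84 at 8h (3.57-fold, adjusted p = 2.03e-04) and 2.23 at 8h2h (4.68-fold, adjusted p = 5e-05), which goes against the labels. Whether its 1 probe lies outside the deleted part and whether the line labels are exchanged was not tested, so every direction between the lines below is one between labels. Each of the replicates a, b and c is 1 slide that holds all 6 groups, each group always at the same place, and the place cannot be told apart from the group. The labels do not say that the letters are separate cultures, and a p here therefore speaks of the spread among these arrays, which may be technical. Replicates correlated across genes at r = 0.983 to 0.996, except replicate b of KO 8h2h, at 0.943 to 0.945. That array has 88.6% of probes above background and a negative-control median of 42, against 46.6% to 63.8% and 24.5 to 28 on the others. All 10 embryonic stem cell markers were above background in every group. Of 10 primitive streak markers, Mixl1 and Gsc were above background in no group, and on Rescue 8h and Rescue 8h2h they were the only 2 that were not. The streak marker T was above background on 0 of 3 arrays at 0h and on 3 of 3 at 8h and 8h2h in each line.

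The comparison of arrays titled 8h with those titled 0h asks what followed 8 h in 4OHT, which switches Raf-ErT2 on, going by the titles. The Nodal ligand and both Lefty antagonists fell in both lines, and the co-receptor gene Tdgf1 and the receptor gene Acvr2b fell by less. Lefty1 changed most, by -5.79 in KO and -5.86 in Rescue, values that depend on dim spots: normexp gave -4.64 and -4.69, and leaving out the KO 8h array not above background gave -4.65 in KO. Of the 8 genes, 1 was higher and 5 were lower in KO 8h against KO 0h, where 25.4% of all genes were called, and 0 were higher and 5 lower in Rescue, where 29.1% were. The median change of the 8 was -0.52 in KO and -0.51 in Rescue, against -0.037 and -0.049 over all genes. In the same comparisons 4 of 8 primitive streak markers tested were higher and 0 lower in each line, with summed signals (in units of the 75th percentile) of 1.27 to 1.87 on KO 8h and 0.589 to 0.748 on KO 0h arrays, and 1.09 to 1.47 on Rescue 8h and 0.495 to 0.768 on Rescue 0h arrays. Trophoblast markers had 4 higher and 1 lower of 9 in KO and 3 higher and 0 lower in Rescue, and their part in these results was not tested.

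Arrays titled 8h2h against those titled 8h ask what followed the Mek inhibitor, again by the titles. Lefty1 and Nodal were higher again in both lines, while Smad7, which had not passed the test at 8h, fell in both. With only the arrays compared in the limma fit, neither rise was called in KO. There Lefty1 gave 3.12 (adjusted p = 0.319) and Nodal 0.92 (adjusted p = 0.116). Of the 8 genes, 2 were higher and 2 lower in KO 8h2h against KO 8h, where 7.35% of all genes were called. In Rescue 2 were higher and 1 was lower, where 2.88% were called. The median change of the 8 was -0.17 in KO and -0.057 in Rescue, against 0.011 and 0.0006 over all genes. This comparison and the one before it use the same 8h arrays, so an error in those arrays moves the changes of a gene in opposite directions.

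Set against 0h, the arrays titled 8h2h had 6 of the 8 genes lower and 0 higher in each line: Nodal, Tdgf1, Acvr2b, Lefty1, Lefty2 and Smad7. Without scaling 2 were lower in KO and 1 in Rescue, and 0 higher. Over all genes 22.4% were called in KO and 21.3% in Rescue. The median change of the 8 was -0.78 in KO and -0.66 in Rescue, against 0.0012 and -0.05 over all genes. Of 10 embryonic stem cell markers 2 were higher and 4 lower in KO and 2 higher and 6 lower in Rescue, and of 9 trophoblast markers 4 were higher in KO and 3 in Rescue, with 0 lower, and their part was not tested. The same 3 arrays per group enter these comparisons as enter the ones above.

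**Figure D1:**
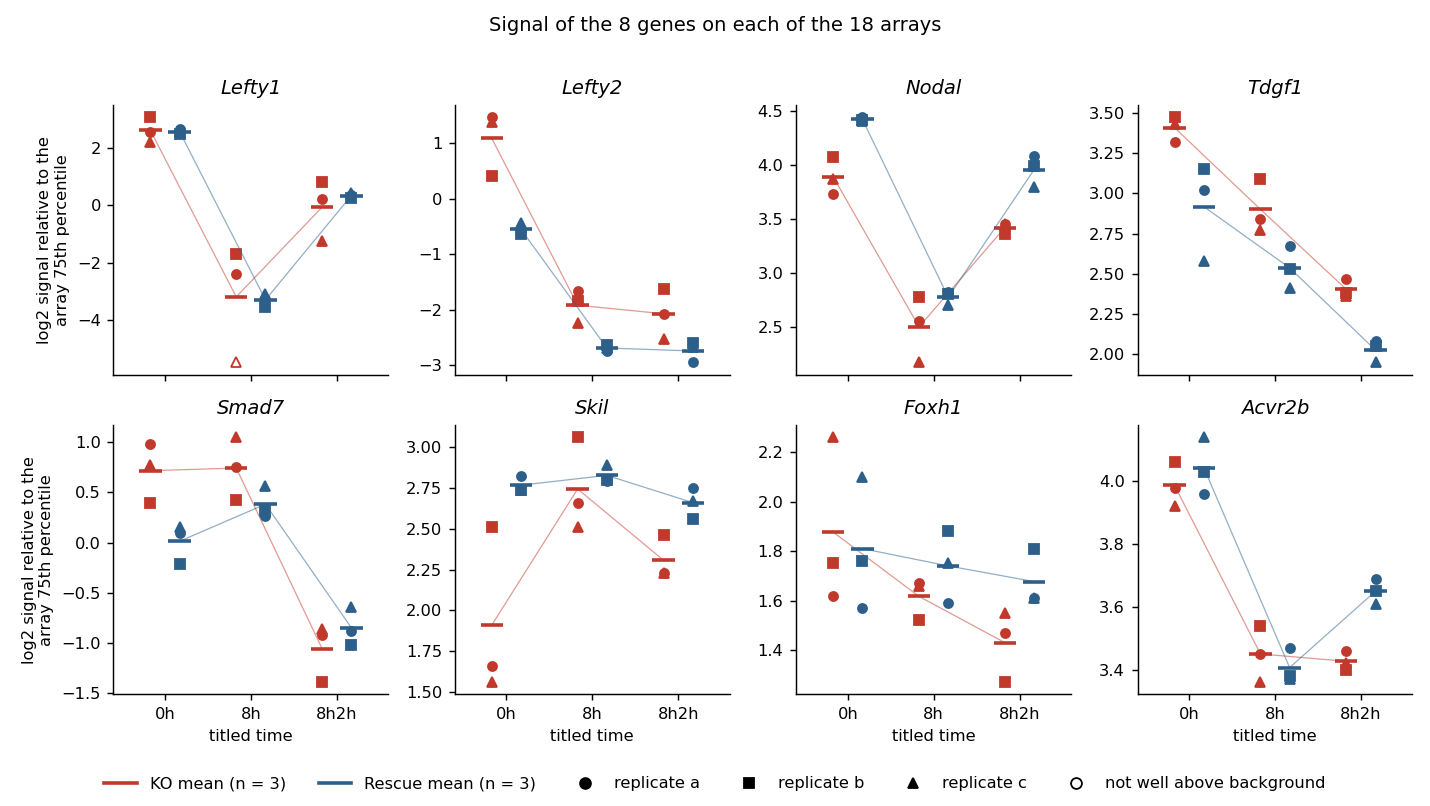
Each panel plots the log2 signal relative to the array 75th percentile (vertical axis, a scale of its own per gene) of 1 gene on each of the 18 arrays against titled time (0h, 8h, 8h2h). KO arrays (red) stand left of Rescue arrays (blue), bars are means of 3 arrays, marker shapes are replicates, and the open marker is the array where Lefty1 (-5.47) was not well above background. Lefty1 and Nodal are lowest at 8h and higher at 8h2h in both lines, Lefty2 stays low, and Smad7 is lowest at 8h2h.

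Nodal, the ligand, read 3.73, 4.07 and 3.87 on the KO 0h arrays (replicates a, b and c), 2.55, 2.78 and 2.17 on KO 8h and 3.45, 3.36 and 3.45 on KO 8h2h. The Rescue arrays read 4.44, 4.42 and 4.41 at 0h, 2.82, 2.80 and 2.70 at 8h and 4.08, 3.99 and 3.80 at 8h2h. In each line the 8h arrays were the lowest, 8h2h lay between, and the 3 groups of a line did not overlap. At 8h Nodal fell by 1.39 ± 0.14 on the log2 scale in KO (SE, 2.62-fold, adjusted p = 3.69e-06) and by 1.65 ± 0.14 in Rescue (3.14-fold, adjusted p = 6.52e-07). At 8h2h it rose against 8h by 0.92 ± 0.14 in KO (adjusted p = 8.28e-04) and by 1.19 ± 0.14 in Rescue (adjusted p = 1.77e-04). That is 66.3% of its fall in KO and 71.9% in Rescue, with 76.7%, 44.8% and 75.3% on slides a, b and c in KO and 77.8%, 73.4% and 64.8% in Rescue. It was still below 0h at 8h2h, at -0.47 ± 0.14 in KO (adjusted p = 0.024) and -0.46 ± 0.14 in Rescue (adjusted p = 0.0255). These last 2 calls are near the threshold and ended under several alternatives, without scaling among them (-0.00079 and -0.054). Without scaling the rises at 8h2h were 1.07 in KO and 1.26 in Rescue and were not called either (adjusted p = 0.0669 and 0.0625).

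Tdgf1 encodes Cripto, the EGF-CFC co-receptor that Nodal needs to reach its receptors. Its brightest probe read 3.32, 3.47 and 3.43 on KO 0h, 2.84, 3.09 and 2.77 on KO 8h and 2.47, 2.38 and 2.36 on KO 8h2h. On Rescue arrays it read 3.02, 3.15 and 2.58 at 0h, 2.67, 2.53 and 2.41 at 8h and 2.08, 2.05 and 1.95 at 8h2h. The mean of Tdgf1 was lower at each later titled time in both lines, and only the Rescue groups at 8h and 0h overlapped among times of a line. At 8h2h it had fallen against 0h by 1.00 ± 0.13 in KO (2.00-fold, adjusted p = 1.10e-04) and by 0.89 ± 0.13 in Rescue (1.86-fold, adjusted p = 2.69e-04). Without scaling these were -0.53 (adjusted p = 0.239) and -0.48 (adjusted p = 0.352), neither called, and the 8h changes were -0.19 in KO and -0.042 in Rescue. The steps were smaller: -0.51 ± 0.13 in KO at 8h (adjusted p = 0.0121), -0.38 ± 0.13 in Rescue at 8h (adjusted p = 0.0482) and -0.49 ± 0.13 in KO at 8h2h against 8h (adjusted p = 0.0416). In Rescue the later step was -0.51 ± 0.13 (adjusted p = 0.0623), not called, and it was called with the slide as a block (adjusted p = 0.0298). The call in Rescue at 8h ended in 14 of 18 settings that left out 1 array (-0.38 to -0.26 there), and that in KO at 8h2h against 8h in 13 of 18 (-0.56 to -0.40 there). The call in KO at 8h ended without replicate c of KO 8h (-0.44, adjusted p = 0.0585).

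All 5 probes of Tdgf1 gave negative changes in each of these comparisons. At 8h2h against 0h they ran from -1.17 to -0.69 in KO and from -1.11 to -0.53 in Rescue, and 5 of 5 were called in each line when every probe was fitted on its own. At 8h against 0h, 3 of 5 were called in KO (-0.62 to -0.30) and 1 of 5 in Rescue (-0.62 to -0.02). For the later step 0 of 5 were called in either line.

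Acvr2b, a type II receptor that binds activins and Nodal, read 3.98, 4.06 and 3.92 on KO 0h, 3.45, 3.54 and 3.36 on KO 8h and 3.46, 3.40 and 3.42 on KO 8h2h. Rescue arrays read 3.96, 4.03 and 4.14 at 0h, 3.47, 3.38 and 3.37 at 8h and 3.69, 3.65 and 3.61 at 8h2h. The 0h arrays were the highest in both lines and overlapped with no later group of their line. At 8h Acvr2b fell by 0.54 ± 0.08 in KO (1.45-fold, adjusted p = 2.20e-04) and by 0.64 ± 0.08 in Rescue (1.56-fold, adjusted p = 4.06e-05). The change at 8h2h against 8h was -0.03 ± 0.08 in KO (adjusted p = 0.88) and 0.24 ± 0.08 in Rescue (adjusted p = 0.175), neither called, although the Rescue groups did not overlap. Against 0h it was lower at 8h2h by -0.56 ± 0.08 in KO (adjusted p = 2.12e-04) and -0.40 ± 0.08 in Rescue (adjusted p = 0.00314). These calls rest on the scaling: without it the 8h changes were -0.22 and -0.30, neither called, and that of Rescue 8h2h against 0h was 0.015. The dimmer of its 2 probes gave -0.45 and -0.36 at 8h and -0.40 and -0.091 at 8h2h against 0h, none called.

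Foxh1, the DNA-binding partner that carries Smad2 and Smad3 to Nodal targets, was called in no comparison. It read 1.62, 1.75 and 2.26 on KO 0h, 1.67, 1.52 and 1.66 on KO 8h and 1.47, 1.27 and 1.55 on KO 8h2h, and 1.57, 1.76 and 2.10, then 1.59, 1.88 and 1.75, then 1.61, 1.81 and 1.61 on the Rescue arrays of the same times. Replicate c stood highest at 0h in both lines, and the groups next to each other in level all overlapped. The 8h change was -0.26 in KO (95% interval -0.62 to 0.10) and -0.07 in Rescue (-0.43 to 0.29). Against 0h the KO 8h2h arrays did not overlap with the KO 0h arrays, at -0.44 ± 0.17 (adjusted p = 0.0713).

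Lefty1, a secreted Nodal antagonist, had the largest changes of the 8 genes at 8h in both lines. It read 2.56, 3.05 and 2.19 on KO 0h, -2.41, -1.69 and -5.47 on KO 8h and 0.23, 0.81 and -1.24 on KO 8h2h. Rescue arrays read 2.65, 2.47 and 2.56 at 0h, -3.25, -3.55 and -3.08 at 8h and 0.35, 0.24 and 0.41 at 8h2h. In each line every 8h array was below every 8h2h array, and every 8h2h array below every 0h array. Replicate c of KO 8h, with a processed signal of 11.3, was not well above background, so 2 of 3 arrays measured the gene in that group. At 8h Lefty1 fell by 5.79 ± 0.72 in KO (55.4-fold, adjusted p = 3.34e-05) and by 5.86 ± 0.72 in Rescue (58.0-fold, adjusted p = 2.71e-05). At 8h2h it rose against 8h by 3.12 ± 0.72 in KO (8.70-fold, adjusted p = 0.0172) and by 3.63 ± 0.72 in Rescue (12.4-fold, adjusted p = 0.0125).

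Without replicate c of KO 8h the change of Lefty1 in KO at 8h was -4.65 (adjusted p = 9.10e-06) and that at 8h2h against 8h was 1.98 (adjusted p = 0.027). That array also widens the spread that all comparisons of Lefty1 share: without it the adjusted p of the rise in Rescue was 1.76e-04, at the same 3.63. Without the high-background replicate b of KO 8h2h the rise in KO was 2.68 and not called (adjusted p = 0.0618), and without 1 array of Rescue 8h (b) or Rescue 8h2h (a or c) the rise in Rescue was 3.50 to 3.62 and not called (adjusted p = 0.0517 to 0.0635). The rise made up 53.9% of the fall in KO and 62% in Rescue on the log2 scale, with 53.1%, 52.7% and 55.2% on slides a, b and c in KO and 61%, 63% and 61.9% in Rescue. In KO the value of slide c rests on the 8h array not above background, and that of slide b on the high-background array. The fall and the rise also share the 8h arrays. At 8h2h Lefty1 was still lower than at 0h, by -2.67 ± 0.72 in KO (6.36-fold, adjusted p = 0.0159) and -2.23 ± 0.72 in Rescue (4.68-fold, adjusted p = 0.0401). The call in KO ended without replicate b of KO 0h or c of KO 8h2h, and that in Rescue in 10 of 18 settings that left out 1 array (-2.27 to -2.18). Normexp background correction, which draws dim values together, gave falls of -4.64 in KO and -4.69 in Rescue.

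Lefty2, the paralogue of Lefty1 and also a Nodal antagonist, read 1.46, 0.41 and 1.38 on KO 0h, -1.67, -1.85 and -2.24 on KO 8h and -2.07, -1.62 and -2.53 on KO 8h2h. It read -0.59, -0.63 and -0.44 on Rescue 0h, -2.75, -2.63 and -2.69 on Rescue 8h and -2.95, -2.60 and -2.68 on Rescue 8h2h. The 0h arrays were the highest in both lines, while the 8h and 8h2h arrays of a line overlapped. At 8h Lefty2 changed by -3.00 ± 0.26 in KO (8.01-fold lower, adjusted p = 1.26e-06) and by -2.14 ± 0.26 in Rescue (4.40-fold lower, adjusted p = 2.71e-05). The change at 8h2h against 8h was -0.16 (95% interval -0.72 to 0.41) in KO and -0.05 (-0.62 to 0.51) in Rescue, neither called. Lefty1 rose by 3.12 and 3.63 in the same comparisons, values outside these intervals, but the difference between the genes was not tested. Against 0h, Lefty2 was lower at 8h2h by -3.16 ± 0.26 in KO (8.91-fold, adjusted p = 1.39e-06) and -2.19 ± 0.26 in Rescue (4.57-fold, adjusted p = 3.36e-05). The Lefty proteins are similar, each gene was read by 1 probe, and cross-hybridisation between them was not tested.

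Smad7, the inhibitory Smad that blocks the receptors, followed another course. It read 0.98, 0.40 and 0.77 on KO 0h, 0.75, 0.43 and 1.05 on KO 8h and -0.92, -1.39 and -0.86 on KO 8h2h. Rescue arrays read 0.09, -0.21 and 0.16 at 0h, 0.27, 0.32 and 0.56 at 8h and -0.88, -1.02 and -0.64 at 8h2h. The 8h2h arrays were the lowest in both lines and overlapped with no other group of their line. The change at 8h was 0.03 ± 0.20 in KO (adjusted p = 0.948) and 0.37 ± 0.20 in Rescue (adjusted p = 0.193), neither called, although the Rescue groups did not overlap and the slide as a block gave a call there (adjusted p = 0.031). At 8h2h Smad7 fell against 8h by 1.80 ± 0.20 in KO (3.48-fold, adjusted p = 5.28e-05) and by 1.23 ± 0.20 in Rescue (2.34-fold, adjusted p = 0.00277). Against 0h it was lower by -1.77 ± 0.20 in KO (adjusted p = 1.87e-05) and -0.86 ± 0.20 in Rescue (adjusted p = 0.00607). Its other probe gave -1.56 and -1.18 at 8h2h against 8h and was called in both lines. In Rescue the 8h2h calls ended with quantile normalization (-1.20 against 8h, -0.84 against 0h) and without scaling (-1.15 and -0.45).

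Skil, which encodes the Smad corepressor SnoN, read 1.66, 2.51 and 1.56 on KO 0h, 2.66, 3.06 and 2.51 on KO 8h and 2.23, 2.46 and 2.23 on KO 8h2h. Rescue arrays read 2.82, 2.74 and 2.74 at 0h, 2.79, 2.80 and 2.89 at 8h and 2.75, 2.56 and 2.67 at 8h2h. The KO 0h arrays a and c were the lowest of all 18, and replicate b of KO 0h read within the range of the KO 8h arrays, so those groups touched. At 8h Skil rose by 0.83 ± 0.20 in KO (1.78-fold, adjusted p = 0.00712), while the change in Rescue was 0.06 ± 0.20 (adjusted p = 0.87). The later changes, -0.44 ± 0.20 in KO (adjusted p = 0.237) and -0.17 ± 0.20 in Rescue (adjusted p = 1), were not called. The call in KO ended with the mean of its 3 probes (0.64, adjusted p = 0.106) and with only the arrays compared (adjusted p = 0.0972), and its other probes gave 0.38 and 0.71, not called.

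**Figure D2:**
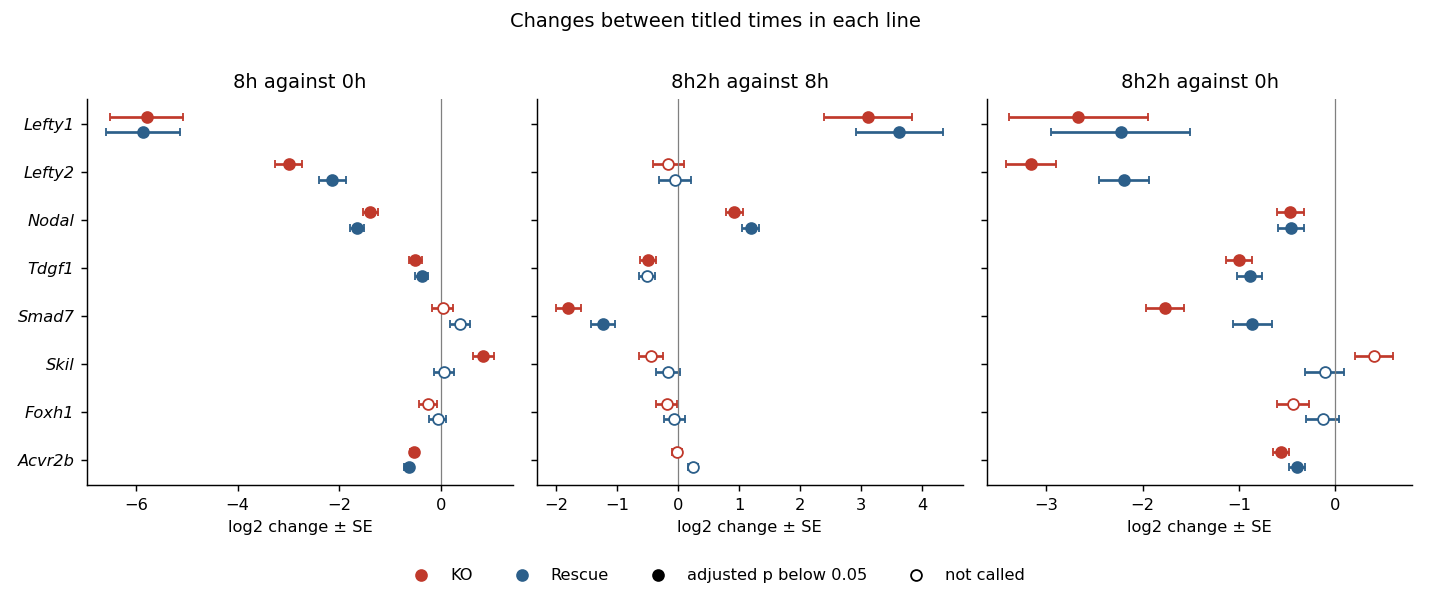
Log2 changes (horizontal axis, with SE bars) of the 8 genes (rows) at 8h against 0h, 8h2h against 8h and 8h2h against 0h, with KO (red) above Rescue (blue). Filled points passed an adjusted p below 0.05 in limma and open points did not. Lefty1 (-5.79 and -5.86 at 8h) and Nodal (-1.39 and -1.65) have negative changes at 8h and positive ones at 8h2h against 8h, Lefty2 (-3.00 and -2.14) is not called at 8h2h against 8h, and Smad7 a called change only where 8h2h enters.

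The lines were compared by label at each titled time. At 0h, Lefty2, Smad7 and Tdgf1 were higher and Nodal and Skil lower on KO arrays, 3 higher and 2 lower of 8, where 18.4% of all genes were called. Lefty2 was higher by 1.64 ± 0.26 (3.11-fold, adjusted p = 6.14e-04), and all KO 0h arrays (0.41 to 1.46) were above all Rescue 0h arrays (-0.63 to -0.44). Smad7 was higher by 0.70 ± 0.20 (adjusted p = 0.0234) and Tdgf1 by 0.49 ± 0.13 (adjusted p = 0.0212). Nodal was lower by -0.54 ± 0.14 (1.45-fold, adjusted p = 0.0136) and Skil by -0.85 ± 0.20 (1.81-fold, adjusted p = 0.00901), with no overlap of the groups for any of the 5. Skil differed by -1.15, -0.23 and -1.18 on slides a, b and c. All 3 of its probes were called (-1.19 to -0.85), against 2 of 5 for Tdgf1 (0.35 to 0.55) and 1 of 2 for Smad7 (0.56 and 0.70). With only the 6 arrays compared in the fit the count was 1, Lefty2, and without replicate a or c of KO 0h it was 3. Lefty1 (0.04, 95% interval -1.50 to 1.58), Foxh1 (0.07, -0.29 to 0.42) and Acvr2b (-0.06, -0.23 to 0.12) were not called.

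At 8h, 1 of the 8 was higher and 0 were lower on KO arrays, where 21.5% of all genes were called. Lefty2 read -1.67, -1.85 and -2.24 on KO 8h against -2.75, -2.63 and -2.69 on Rescue 8h, without overlap, a difference of 0.77 ± 0.26 (adjusted p = 0.0496). That call ended in 12 of 18 settings that left out 1 array (0.65 to 0.80 there), with normexp (0.42) and without scaling (0.90), among others. Lefty1 differed by 0.11 (95% interval -1.44 to 1.65), and by 1.25 (adjusted p = 0.0754) without the array that did not measure it. At 8h2h, 0 were higher and 1, Nodal, was lower on KO arrays, at 3.45, 3.36 and 3.45 against 4.08, 3.99 and 3.80 on Rescue arrays, where 21.8% of all genes were called. That difference was -0.54 ± 0.14 (1.45-fold, adjusted p = 0.0113), and the groups did not overlap. At an unadjusted p below 0.05, 2 of the 8 differed at 8h and 4 at 8h2h, against 5184 and 5245 of all 16022 genes. With the slide as a block, Lefty2 was not called at 8h (adjusted p = 0.0618), Tdgf1 (0.36, adjusted p = 0.0386) and Smad7 (0.36, adjusted p = 0.0408) were, and at 8h2h Tdgf1 was called beside Nodal (0.38, adjusted p = 0.0296).

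Trophoblast markers differed between the lines beside these genes. Of 9 tested, 0 were higher and 9 lower on KO arrays at 0h, with summed signals of 13.0 to 21.6 on KO 0h and 162 to 186 on Rescue 0h arrays. Cdx2, Hand1 and Plac1, the defining markers, were above background on 0 of 3 KO 0h arrays and on all 3 Rescue 0h arrays. At 8h the sums were 44.2 to 56.6 on KO and 258 to 269 on Rescue arrays, and at 8h2h 38.7 to 42.6 and 232 to 257, with 0 higher and 8 lower of 9 at each. Of 10 embryonic stem cell markers 5 were higher and 1 lower on KO arrays at 0h, and of 10 primitive endoderm markers 1 was higher and 5 lower. Fibroblast markers had 0 called of 6 at 0h. What part any of these had in the differences of the 8 genes was not tested.

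Whether the lines differed in their changes over time was tested as a difference of differences. None of the 8 genes was called by limma for 8h against 0h, where 2.28% of all genes were, for 8h2h against 8h, where 0.0562% were, or for 8h2h against 0h, where 2.02% were. At an unadjusted p below 0.05 there were 2, 1 and 2, against 1962, 443 and 2190 of all 16022 genes. The fall of Lefty2 at 8h differed by -0.86 (KO minus Rescue, 95% interval -1.66 to -0.065, adjusted p = 0.347) and the change of Skil by 0.77 (0.16 to 1.38, adjusted p = 0.246). Smad7 differed by -0.91 (-1.51 to -0.31, adjusted p = 0.127) at 8h2h against 0h, with -0.92, -0.98 and -0.83 on slides a, b and c, and by -0.57 (-1.17 to 0.026) at 8h2h against 8h. For Nodal the interval was -0.15 to 0.68 at 8h and -0.68 to 0.15 at 8h2h against 8h, and for Lefty1 -2.12 to 2.25 and -2.69 to 1.67. Replicate b of KO 0h decided these counts: without it Skil (1.07, adjusted p = 0.00804) and Lefty2 (-1.20, adjusted p = 0.0483) were called for 8h against 0h, and Lefty2 (-1.30, adjusted p = 0.0355) and Skil (0.80, adjusted p = 0.0422) for 8h2h against 0h. With the slide as a block Smad7 was called at 8h2h against 0h (adjusted p = 0.0142).

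**Figure D3:**
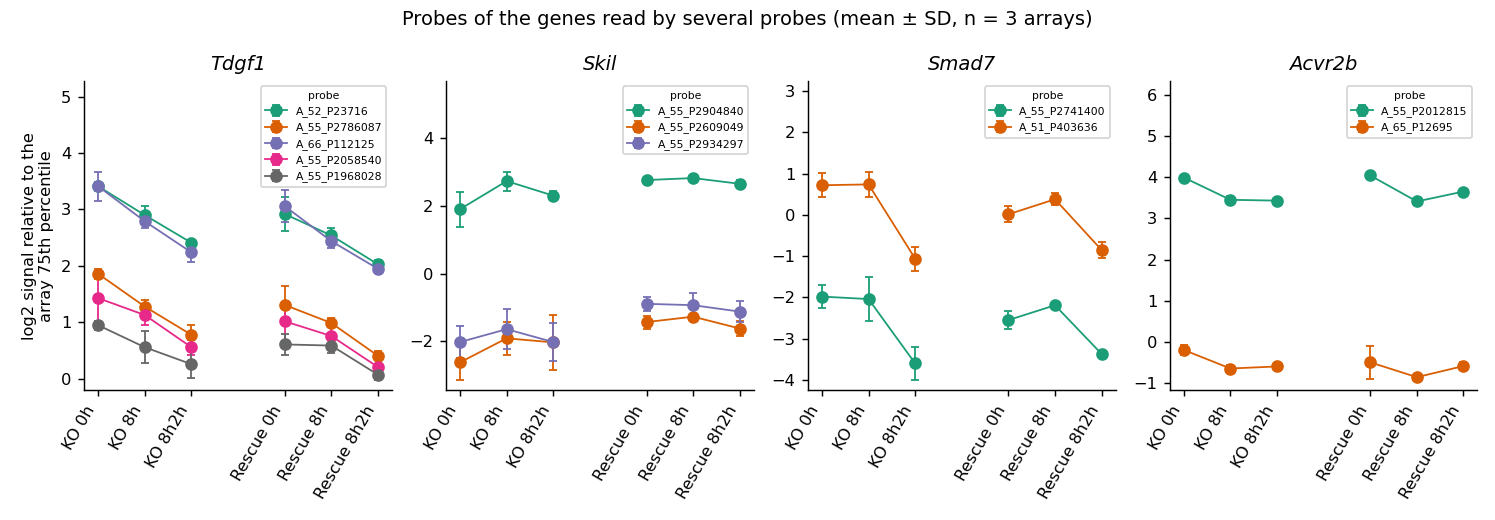
Mean log2 signal relative to the array 75th percentile (vertical axis, SD bars, n = 3 arrays) of each probe of Tdgf1, Skil, Smad7 and Acvr2b in the 6 groups, KO groups left of Rescue groups, 1 colour per probe. The means of the 5 Tdgf1 probes are lower at each later titled time in both lines. For 1 of them the step from Rescue 0h (0.61) to Rescue 8h (0.59) is nearly flat. The 2 Smad7 probes are lowest at 8h2h, while the 3 Skil probes are lower in KO 0h (1.91 for the brightest) than in Rescue 0h (2.77).

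The order of the 6 groups by mean level differed from gene to gene. For Lefty1 the order from high to low was KO 0h, Rescue 0h, Rescue 8h2h, KO 8h2h, KO 8h and Rescue 8h, and the lines overlapped at each time while the times did not. For Lefty2 it was KO 0h, Rescue 0h, KO 8h, KO 8h2h, Rescue 8h and Rescue 8h2h, with overlap between the 8h and 8h2h groups of each line. For Nodal it was Rescue 0h, Rescue 8h2h, KO 0h, KO 8h2h, Rescue 8h and KO 8h, with overlap between Rescue 8h2h and KO 0h and between the 8h groups. Tdgf1 ran KO 0h, Rescue 0h, KO 8h, Rescue 8h, KO 8h2h and Rescue 8h2h, and neighbours overlapped from Rescue 0h to KO 8h and from Rescue 8h to KO 8h2h. Smad7 had KO 8h and KO 0h highest and Rescue 8h2h and KO 8h2h lowest, each of these pairs overlapping. Skil had KO 0h lowest and KO 8h2h next, which overlapped, and Acvr2b had the 0h groups highest, which overlapped.

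Across the 18 arrays the members paired up in part. Pearson's r was 0.92 between Lefty1 and Nodal, 0.86 between Lefty1 and Acvr2b, 0.82 between Nodal and Acvr2b, 0.82 between Lefty2 and Tdgf1 and 0.70 between Lefty1 and Lefty2. It was 0.45 between Lefty2 and Nodal and 0.09 between Tdgf1 and Nodal. The 18 points fall into 6 groups and share arrays and scaling, so these values describe the group pattern only. Among all other tested genes with gene names, those with the highest r to Nodal were Cited4 (0.960), Slc34a3 (0.958) and Galr2 (0.952), and those to Lefty1 were Rasgef1a (0.955), Tmem19 (0.955) and Dtx1 (0.952). The closest to Lefty2 were Acoxl (0.965), Zfp185 (0.964) and Fhod3 (0.964), and to Acvr2b Cdc42ep4 (0.965), Pink1 (0.954) and Svbp (0.953). For Smad7 they were Zfp36l1 (0.904), Epha2 (0.897) and Zbtb11 (0.891), for Skil Enpp3 (0.910), Id1 (0.906) and Tubd1 (0.894). Tdgf1 was closest to Zfp59 (0.907), Pclaf (0.891) and Mcm6 (0.888), and Foxh1 to Hspbp1 (0.935), Ap2s1 (0.925) and Zc3h18 (0.918).

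The rest of the pathway was read from a list of 46 ligands, convertases, receptors, transducers, inhibitors and targets that includes the 8 genes. Of these 40 were tested, and Inhba, Acvr1c, Cer1, Inha, Gsc and Mixl1 were above background in no group or not on the array. At 8h against 0h, 6 of the 32 other genes tested were higher and 10 lower in KO (50% called, against 25.4% of all genes), and 6 higher and 7 lower in Rescue (40.6%, against 29.1%). Tgfbr2, the type II receptor for TGF-beta, averaged 0.57 ± 0.13 on KO 8h and -2.53 ± 0.27 on KO 0h, and 1.28 ± 0.07 on Rescue 8h and -2.25 ± 0.57 on Rescue 0h (SD, n = 3). It rose by 3.10 ± 0.23 in KO (SE, 8.60-fold, adjusted p = 2.73e-07) and by 3.54 ± 0.23 in Rescue (11.6-fold, adjusted p = 7.17e-08). The ligand gene Tgfb1 rose with it, by 1.94 ± 0.23 in KO and 2.43 ± 0.23 in Rescue. Eomes, a T-box factor and Nodal target in the embryo, rose by 1.93 ± 0.23 in KO and by 1.24 ± 0.23 in Rescue. Among the genes that fell in KO were Inhbb, the activin B subunit (-2.99 ± 0.36), the Smad inhibitor Pmepa1 (-1.88 ± 0.23) and the transducer Smad3 (-1.66 ± 0.17). In Rescue Pmepa1 fell by 0.94 ± 0.23, and Inhbb (-0.64 ± 0.36) was not called.

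The convertase gene Furin rose at 8h by 0.80 ± 0.22 in KO and 1.60 ± 0.22 in Rescue. Cfc1, an EGF-CFC gene like Tdgf1, was lower in both lines, at -0.82 ± 0.24 in KO and -1.25 ± 0.24 in Rescue. Of the receptor-regulated and common Smads, Smad2 was lower in KO (-0.36 ± 0.11, adjusted p = 0.0236) and in Rescue (-0.63 ± 0.11, adjusted p = 4.99e-04), and Smad4 was not called (0.17 and 0.13). Smad3 in Rescue changed by -0.26 ± 0.17, not called. The type I receptor gene Acvr1b fell in KO (-0.85 ± 0.19) and gave -0.44 ± 0.19 in Rescue, not called. The other activin type II receptor gene Acvr2a (0.25 and -0.02) and the Nodal-related ligand gene Gdf3 (-0.33 and -0.61) were called in neither line.

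At 8h2h against 8h, 2 of the 32 were higher and 2 lower in KO (12.5%, against 7.35% of all genes), and 0 higher and 2 lower in Rescue (6.25%, against 2.88%). Tgfbr2 fell by 1.07 ± 0.23 in KO (adjusted p = 0.0118) and by 1.21 ± 0.23 in Rescue (adjusted p = 0.00969), so it stayed above 0h by 2.03 and 2.32. Tgif1, a Smad corepressor gene, fell by 0.84 ± 0.16 in KO and by 0.71 ± 0.16 in Rescue. In KO, Acvr1b (1.33 ± 0.19) and Smad3 (0.92 ± 0.17) rose, with 0.40 and 0.43 in Rescue, not called. At 8h2h against 0h, 5 were higher and 7 lower in KO (37.5%, against 22.4% of all genes) and 4 higher and 6 lower in Rescue (31.2%, against 21.3%), with Inhbb at -2.84 ± 0.36 in KO and -1.28 ± 0.36 in Rescue.

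**Figure D4:**
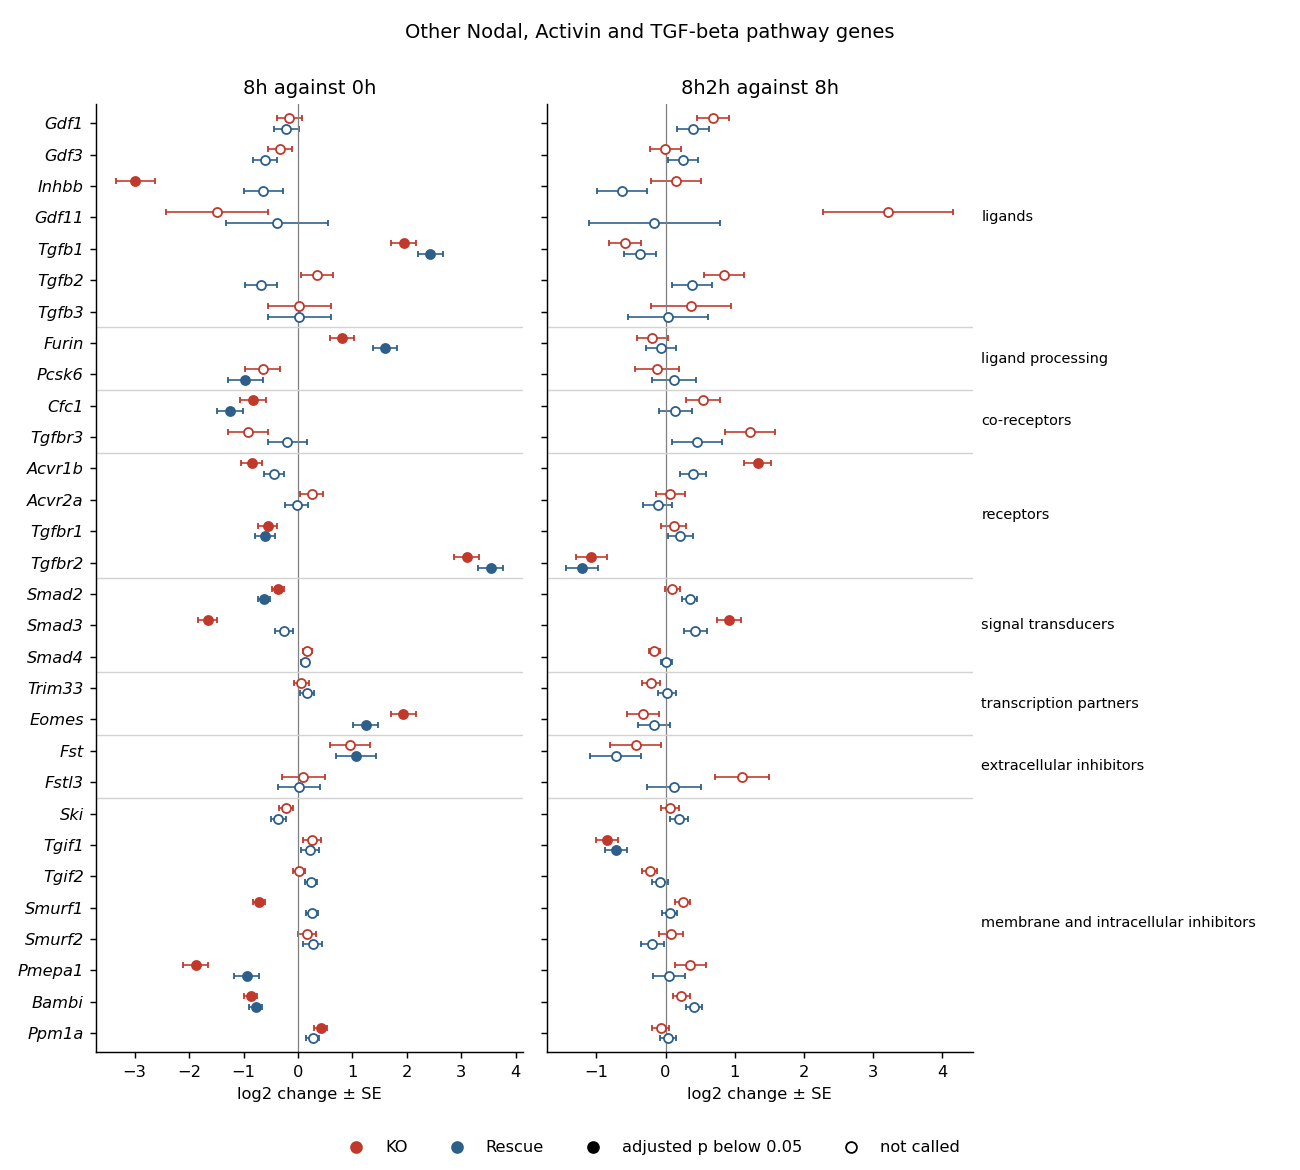
Log2 changes (horizontal axes, SE bars) of 30 of the 32 other pathway genes (rows, grouped by role) at 8h against 0h (left) and 8h2h against 8h (right), with KO (red) above Rescue (blue). Filled points passed an adjusted p below 0.05 and open points did not. Tgfbr2 has the largest positive change at 8h (3.10 and 3.54), and fewer genes are filled at 8h2h against 8h, 4 in KO and 2 in Rescue.

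Between the lines, 5 of the 32 were higher and 5 lower on KO arrays at 0h (31.2%, against 18.4% of all genes), 3 higher and 11 lower at 8h (43.8%, against 21.5%) and 5 higher and 8 lower at 8h2h (40.6%, against 21.8%). Tgfb2, a ligand gene, was lower on KO arrays at all 3 times (-2.68, -1.65 and -1.18), and Pcsk6, a convertase gene that acts on Nodal, was higher (2.05, 2.37 and 2.13). Inhbb was higher at 0h by 2.40 ± 0.36 and Pmepa1 by 1.59 ± 0.23. Fstl3, which binds activins, was lower at 0h (-1.63 ± 0.39) and 8h (-1.55 ± 0.39). Furin was lower at all 3 times (-0.77, -1.56 and -1.69), and Smad3 at 8h and 8h2h (-1.74 and -1.25). At 8h2h Acvr1b was higher by 0.98 ± 0.19, a direction that turned with quantile normalization (-0.16).

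Scaling moved the balance of higher and lower calls over all genes. Left unscaled, the all-gene median moved by 0.07 to 0.47 over the 9 comparisons of groups, furthest for KO 8h2h against 0h, and every change above is relative to the 75th percentile. The share of called genes that were higher was 46.9% in KO 8h against 0h and 79.2% without scaling, 44.7% and 80.7% in Rescue, 56.4% and 74.4% in KO 8h2h against 8h, 49.2% and 95.6% in KO 8h2h against 0h, 49.3% and 90.8% in Rescue, and 43.8% and 64.2% in KO against Rescue at 8h2h (33.4% with quantile normalization). For the difference between the lines it was 46.8% and 25.9% at 8h against 0h and 88.9% of 9 genes and 100% of 5 at 8h2h against 8h, and it was 49.6% in Rescue 8h2h against 8h and 38.8% with normexp.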

How the data were processed

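RNA from 18 samples was hybridised to 1-colour Agilent arrays, 100 ng per labelling by the labels. The authors deposited scanner output, which per the file headers came from Feature Extraction 12.0.1.1. It holds the processed signal, an intensity already corrected for background and read in the green channel although the labels name Cy5, and other flags (well above background, outlier, saturated) as deposited. The deposited value table of intensity equals the processed signal on all 18 arrays. There were 0 columns of other series.

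Each array was divided by the 75th percentile of its 59305 non-control spots and log2 was taken. Spots of 1 probe were averaged after leaving out outlier flags. The filter asked for signal well above background on all 3 arrays in 1 group or more, and 34197 of 56605 probes passed. Probes were named through their RefSeq transcript (32994 probes, 22911 symbols), 107 kept probes were left out for outlier spots, and of a gene's probes the brightest on average stood for the gene (5698 of 16022 genes had several). No spot was saturated, and the number of arrays limits the precision.

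All 18 arrays entered 1 limma model (12 residual degrees of freedom) with 12 comparisons, 3 of them differences between lines, two-sided, Benjamini-Hochberg adjusted. The members and lists were chosen with earlier results of these data known. Of the other pathway genes, those named are the largest called changes and the core receptors and Smads, a few of which are not reported here. The alternatives were 18 leave-outs of 1 array and 9 others, among them normexp (on the median spot signal, offset 50). Some could not move a log2 change. The value table holds the same signal, and a gene with 1 probe has no other probe to read or average. Leaving out an array outside a comparison leaves its log2 change as it was. Same-slide arrays deviated together at r above 0.1 in 28 of 45 pairs (median 0.141, from -0.058 to 0.733). The main model still left the slide out, and the slide as a block was an alternative. On data simulated for KO 8h against KO 0h (16022 genes, 50 changed per size) limma called 24%, 68%, 88% and 58% of log2 changes of 0.5, 1, 2 and -1, with 9 false calls, and 0 in an unchanged comparison. The simulated noise was independent between arrays, with no slide effect. Far fewer genes were changed than the 25.4% called in the real comparison. These shares therefore do not give the recovery or the false calls in the real data. R 4.3.3, limma 3.58.1, data.table (version 1.17.8), Python 3.11.15, pandas 2.3.3 and matplotlib 3.10.9 were used.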

Additional observations from a re-analysis of the deposited data

Results flagged for a closer look

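None of the 8 genes was called for a difference between the lines in its change over time, although 5 of the 8 differed between the lines at 0h. There were 5 other genes named here whose change over time did differ, and their part in the results of the 8 was not tested. For 8h against 0h, KO change minus Rescue change, the difference was -2.35 ± 0.52 for Inhbb (SE, limma adjusted p = 0.0274), -1.40 ± 0.24 for Smad3 (adjusted p = 0.00605), -0.96 ± 0.16 for the ubiquitin ligase gene Smurf1 (adjusted p = 0.00558) and -2.02 ± 0.22 for the ERK-induced gene Egr1 (adjusted p = 3.34e-04). Inhbb averaged -2.28 on KO 8h and 0.71 on KO 0h, against -2.33 on Rescue 8h and -1.68 on Rescue 0h. Smad3 averaged -0.83 on KO 8h and 0.83 on KO 0h, against 0.91 on Rescue 8h and 1.17 on Rescue 0h. Smurf1 averaged 0.97 on KO 8h and 1.68 on KO 0h, against 1.99 on Rescue 8h and 1.74 on Rescue 0h. The call of Inhbb ended in 8 of 18 settings that left out 1 array, and those of Inhbb, Smad3 and Smurf1 ended without scaling at nearly the same size (-2.37, -1.42 and -0.98, adjusted p = 0.274, 0.135 and 0.752).

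For 8h2h against 0h the difference was -0.78 ± 0.16 for Smurf1 (adjusted p = 0.025), -2.87 ± 0.22 for Egr1 (adjusted p = 4.7e-05) and 1.60 ± 0.37 for Esrrb (adjusted p = 0.0428). Esrrb averaged 3.85 on KO 8h2h and 5.03 on KO 0h, against 1.62 on Rescue 8h2h and 4.40 on Rescue 0h. Egr1 averaged -0.73 on KO 8h2h and 1.54 on KO 0h, against 0.57 on Rescue 8h2h and -0.032 on Rescue 0h.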

How the results depend on the processing

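Of 2592 recomputed changes of the 8 genes, 2424 stayed on their side of the threshold, 141 lost a call, 26 gained one and 1 called change turned. The change that turned was Acvr2b in Rescue 8h2h against 0h, -0.40 and 0.015 without scaling. Among the 2424, 69 changed sign with no call in either. The 2424 also include settings that could not move a log2 change, such as the deposited value table, where 96 of 96 stayed the same. Of 4966 values of other named genes 1 turned, Acvr1b in KO against Rescue at 8h2h, 0.98 and -0.16 with quantile normalization. The cause was not tested.

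Without scaling the count of the 8 genes called was 2 for KO 8h2h against 8h (4 as reported), 2 for KO 8h2h against 0h (6), 3 for Rescue 8h against 0h (5), 1 for Rescue 8h2h against 8h (3), 1 for Rescue 8h2h against 0h (6), 1 for KO against Rescue at 0h (5), 0 at 8h (1) and 0 at 8h2h (1). For KO 8h against 0h, 1 gene was higher and 3 were lower without scaling (1 and 5 as reported). With only the arrays compared the count was 1 for KO 8h2h against 8h and 1 for KO against Rescue at 0h. For KO against Rescue at 8h it was 0 with normexp, quantile normalization, no filter, the mean of probes or every probe on its own, and at 8h2h it was 2 with quantile normalization.

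With the slide as a replicate block, whose pairing the correlations did not bear out for every pair, the counts were 6, 4 and 7 in KO, 6, 4 and 6 in Rescue (8h against 0h, 8h2h against 8h, 8h2h against 0h), 5, 2 and 2 between the lines (0h, 8h, 8h2h) and 0, 0 and 1 for the differences between lines. The block gave Foxh1 a call in KO 8h2h against 0h (-0.44, adjusted p = 0.0445), and at 8h between the lines its 2 calls are Tdgf1 and Smad7 in place of Lefty2.

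Leaving out 1 array gave 5 to 6 (KO 8h against 0h), 2 to 4 (KO 8h2h against 8h), 5 to 7 (KO 8h2h against 0h), 4 to 5, 2 to 4 and 4 to 6 (the same in Rescue), 3 to 5, 0 to 1 and 1 to 3 (KO against Rescue at 0h, 8h and 8h2h), and 0 to 2, 0 and 0 to 2 (differences between lines). KO 8h2h against 8h had 2 without the high-background array, KO 8h2h replicate b.

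Over all genes, counts without scaling were 1828 (4077 as reported), 340 (1177), 2356 (3595), 2027 (4667), 91 (462), 1689 (3409), 1011 (2941), 1211 (3450), 1264 (3493), 54 (365), 5 (9) and 45 (324), in the order of comparisons above. Normexp gave 767 for KO 8h2h against 8h, and 4 and 189 for the later differences between lines, and quantile normalization 3 for the first of those. Without the filter there were 7490 for KO against Rescue at 8h2h. With only the arrays compared there were 135, 1200, 1491 and 2072 for KO 8h2h against 8h and 0h, Rescue 8h2h against 8h, and KO against Rescue at 8h2h.

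Limits: 3 arrays per group, 1 slide per replicate, a fixed place per group and dim values for Lefty1 and Lefty2 at 8h bound the precision.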

Other observations

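Fibroblast markers, of which 6 of 8 were tested, had summed signals (in units of the 75th percentile) of 14.8 to 21.3 on KO 8h and 2.03 to 2.58 on KO 0h arrays, and of 6.45 to 7.59 on Rescue 8h and 2.01 to 2.33 on Rescue 0h arrays. In each line 1 of the 6 was called higher and 0 lower, and Postn and Lum were above background in no group. A sum follows the brightest genes of a list, and the median change of the 6 was -0.18 in KO and 0.42 in Rescue. Col1a1 averaged -3.93 on KO 0h and -3.96 on KO 8h, and -3.16 on Rescue 0h and -3.86 on Rescue 8h. Col1a2 averaged -4.25 and -4.38 on the same KO groups and -3.10 and -3.22 on the Rescue groups. Embryonic stem cell markers were 2 higher and 2 lower of 10 in KO 8h against 0h and 3 higher and 4 lower in Rescue. The sums of the stem cell markers were 592 to 696 on KO 8h and 707 to 757 on KO 0h arrays. They were 532 to 550 on Rescue 8h and 627 to 751 on Rescue 0h arrays. Nanog averaged 3.63 on KO 0h and 0.045 on KO 8h, and 2.12 on Rescue 0h and -2.61 on Rescue 8h. Pou5f1 averaged 6.03 and 6.15 on the same KO groups and 5.41 and 5.86 on the Rescue groups. Sox2 averaged 4.59 and 4.49 on KO and 3.98 and 4.07 on Rescue. The part of these markers in the results of the 8 genes was not tested.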
